A study of Rattus norvegicus with 16 samples.

Results

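Tnnt2, Myh3 and Casq2 are 3 genes of the contractile and calcium-release machinery of striated muscle. They were followed on 16 nylon membrane arrays of the rat EDL (extensor digitorum longus), which lies in the lower hind limb and is made mostly of fast fibres. Each gene had 1 probe, so the set made up 3 of the 1185 probes in the table. The genes were chosen because their values were higher in denervated muscle, by the platform's gene symbols Tnnt2 (gene ID 24837), Myh3 (gene ID 24583) and Casq2 (gene ID 29209). Their differences between groups are therefore given as a description, with no test. The 8 denervated arrays came from EDL muscle denervated for 2 months and the 8 control arrays from control EDL muscle. All rats were Brown Norway rats aged 6 months, and the labels name no transgene or drug. How the nerve was interrupted is not given in the sources used here. Rats carry the numbers 1 to 8 in both groups, and each array was taken as 1 rat.

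Muscle contraction is switched on by calcium. Calsequestrin holds calcium inside the sarcoplasmic reticulum, and when it is released calcium binds the troponin complex, which moves tropomyosin off the actin filament so that myosin heads can bind. Most of these proteins come in isoforms encoded by separate genes. Tnnt2 encodes cardiac troponin T, the subunit that ties the troponin complex to tropomyosin, and is also made in embryonic skeletal muscle. Myh3 encodes the embryonic myosin heavy chain, the motor protein of developing fibres. Casq2 encodes the calsequestrin of heart and slow skeletal fibres. In adult fast muscle these isoforms are known to give way to fast ones, and embryonic isoforms are known to return after injury or loss of the nerve.

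The 250 bases before each gene start are shown here because they are the promoter-proximal DNA of the 3 genes, whose values were all higher in denervated muscle. They come from RefSeq on rat assembly GRCr8, where all 3 genes were matched by gene ID and lie on the plus strand, at chr13:49818873-49819122 for Tnnt2, chr10:52268935-52269184 for Myh3 and chr2:192214306-192214555 for Casq2. For Tnnt2, with 2 listed starts, the one at the start of the gene was used. Capitals mark matches, on either strand for the first 4, to the E-box CANNTG of myogenic factors, the MCAT element CATTCC, the RUNX core TGTGGT and the MEF2 element, and to TATAAA on the plus strand.
Tnnt2: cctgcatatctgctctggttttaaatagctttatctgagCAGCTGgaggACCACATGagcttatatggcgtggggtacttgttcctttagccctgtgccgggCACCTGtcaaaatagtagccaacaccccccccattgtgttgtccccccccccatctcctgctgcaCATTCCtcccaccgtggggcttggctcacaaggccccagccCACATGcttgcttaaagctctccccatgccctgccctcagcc
Myh3: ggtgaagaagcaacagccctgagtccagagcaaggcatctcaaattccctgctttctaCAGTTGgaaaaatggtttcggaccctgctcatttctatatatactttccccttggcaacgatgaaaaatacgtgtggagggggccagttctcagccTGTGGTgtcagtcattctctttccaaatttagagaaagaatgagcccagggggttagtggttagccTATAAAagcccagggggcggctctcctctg
Casq2: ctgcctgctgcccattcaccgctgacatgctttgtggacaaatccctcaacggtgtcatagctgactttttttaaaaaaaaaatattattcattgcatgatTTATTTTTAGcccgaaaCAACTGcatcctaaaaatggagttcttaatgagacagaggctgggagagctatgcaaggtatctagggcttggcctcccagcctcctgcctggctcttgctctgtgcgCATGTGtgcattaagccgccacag

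The Tnnt2 window held 4 E-boxes, 1 MCAT element that begins 83 bases before the start, and 1 RUNX core that overlaps an E-box. The Myh3 window held 1 E-box, 1 RUNX core beginning 96 bases before the start and TATAAA beginning 30 bases before it. The Casq2 window held 2 E-boxes and 1 MEF2 match, which begins 149 bases before the start. None of the 3 windows held a CArG box, the element bound by serum response factor. Among the 33469 windows of the same length in the RefSeq table, 65.5% held an E-box, 14.5% a RUNX core, 12.1% an MCAT element, 8.06% TATAAA, 2.96% a MEF2 match and 1.5% a CArG box. No motif was found in all 3 windows other than the E-box, which most windows hold. A match is a string of letters and not a measured binding site.

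**Figure D1:**
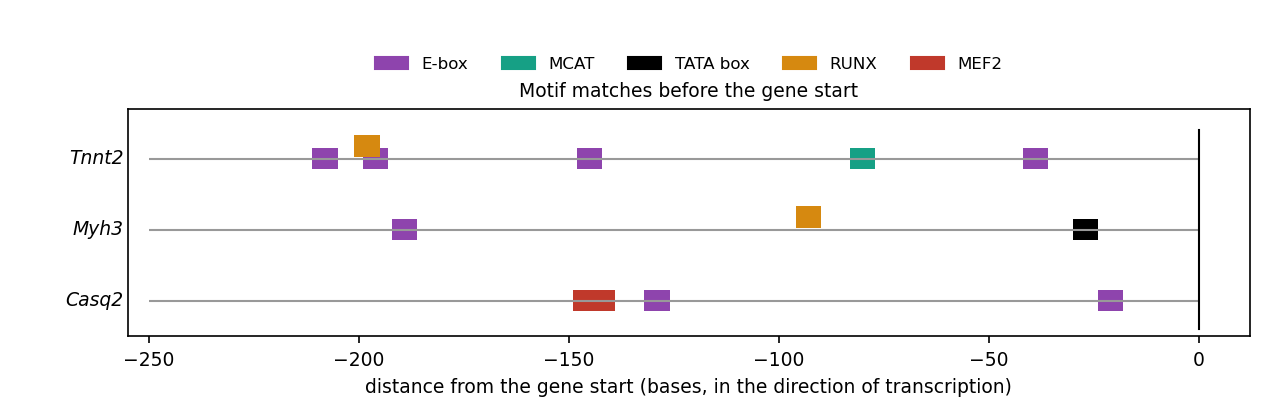
Matches to 5 motifs in the 250 bases before the start of Tnnt2, Myh3 and Casq2, drawn to scale; the horizontal axis is the distance from the gene start in bases and each block is 1 match. The 4 E-boxes of Tnnt2, the TATA box of Myh3 and the MEF2 match of Casq2 lie at different distances, and RUNX blocks are raised so that an overlap stays visible.

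The values are on a logarithmic scale whose base is not given in the sources used here, so levels and differences are both in log units and cannot be turned into folds. On every array the lowest value was shared by 22 to 206 probes, and it is called the floor of that array. For a probe at the floor, the true level may lie anywhere below that value. Floors lay between 2.51 and 5.93 on denervated arrays and between 3.27 and 6.69 on control arrays. Array medians lay between 7.97 and 8.60 on denervated arrays and between 8.10 and 8.51 on control arrays other than that of control rat 6, which had a median of 6.98. The highest share of identical values between any 2 arrays was 0.0850%, so no array was a copy of another. Denervated arrays of rats 1 to 4 had floors of 4.99 to 5.93 and those of rats 5 to 8 floors of 2.51 to 4.08, a split by rat number that the labels do not name. Control arrays did not split in this way. Their floors were 5.18 to 6.69 in rats 1 to 4 and 3.27 to 6.20 in rats 5 to 8. In whole-muscle RNA a change in the number of cells of a type and a change in the RNA per cell cannot be told apart.

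Tnnt2 was higher on every denervated array than on any control array. On the 8 denervated arrays its lowest value was 10.38, its median 11.29 and its highest 13.06, against a lowest of 3.27, a median of 6.57 and a highest of 7.30 on the 8 control arrays. The groups were 3.08 log units apart at their closest. Means were 11.46 ± 0.90 in denervated muscle and 6.12 ± 1.27 in control muscle (SD, n = 8 each), a difference of 5.34 (SE 0.44). No denervated array was at its floor for Tnnt2, where the values lay at least 5.32 above it, while 4 of 8 control arrays were. The other 4 control arrays, those of rats 1, 4, 7 and 8, lay 0.25 to 1.56 above their floors. With the median of its own array subtracted, Tnnt2 lay between 1.78 and 4.89 on denervated arrays and between -3.71 and -1.15 on control arrays.

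Myh3 was near or at the floor in all control rats. Its lowest, median and highest values were 7.18, 9.59 and 10.74 on denervated arrays, against 3.27, 5.81 and 6.69 on control arrays. The groups did not overlap, with 0.50 log units between the lowest denervated and the highest control value. Means were 9.28 ± 1.36 in denervated muscle and 5.60 ± 1.04 in control muscle (SD, n = 8 each), a difference of 3.68 (SE 0.55). The control value was at the floor on 7 of 8 arrays and 0.43 above it in control rat 1, so the control level is an upper bound on nearly every array. The control mean therefore mainly records where the floors lay. No denervated array was at the floor, the values lying 2.18 to 8.23 above it.

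Casq2 differed from both in that it was measured above the floor on all 16 arrays. Its values ran between 8.41 and 10.59 on denervated arrays and between 7.005 and 8.83 on control arrays, with a control median of 8.18. The groups overlapped. Of the 8 denervated values, 7 lay above the highest control value, and that of denervated rat 4, at 8.41, lay below 3 control values. Means were 9.85 ± 0.72 in denervated muscle and 8.09 ± 0.63 in control muscle (SD, n = 8 each), a difference of 1.77 (SE 0.38). Casq2 stood 1.82 to 4.08 above the floor in control muscle. Floor values made up 7 of 8 control values of Myh3, 4 of 8 of Tnnt2 and 0 of 8 of Casq2. The word re-expressed therefore goes against the Casq2 values, and a low control level of Tnnt2 was measured in 4 rats.

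**Figure D2:**
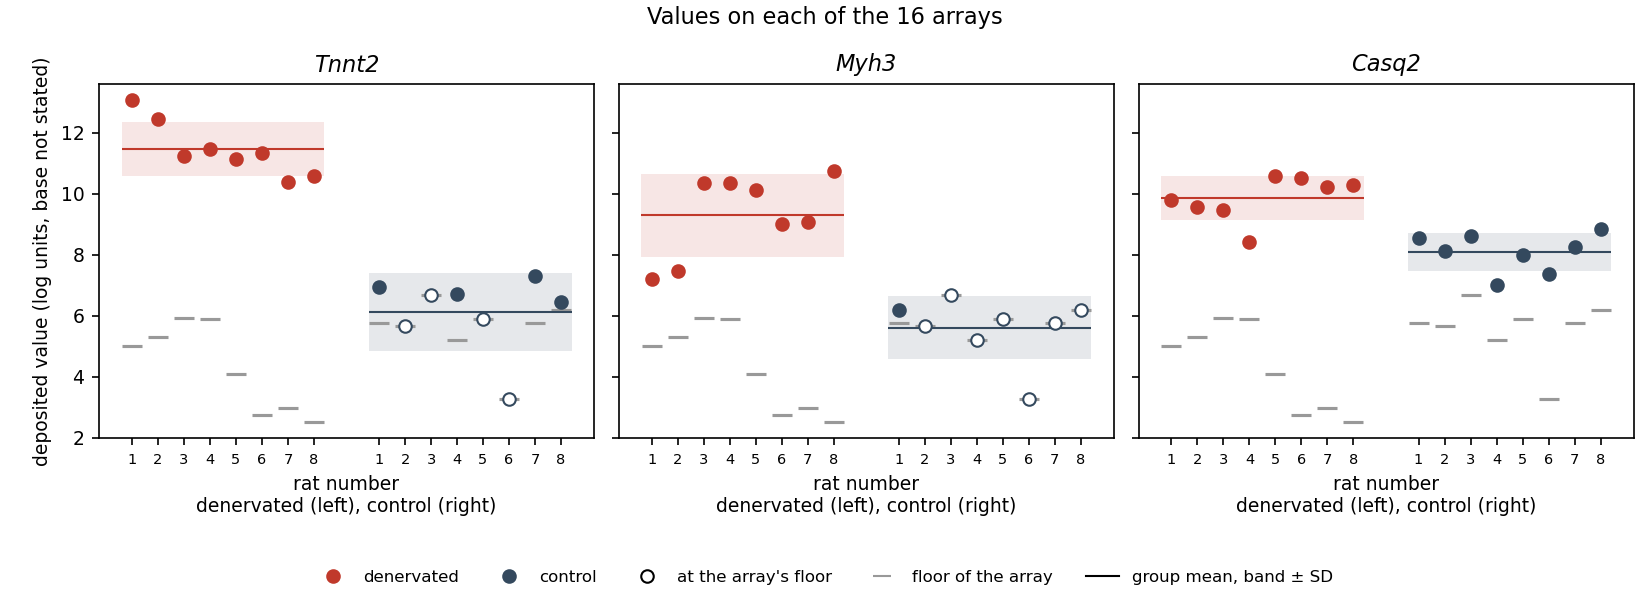
Deposited values (vertical axis, log units) of Tnnt2, Myh3 and Casq2 on each array (horizontal axis, rat number, with denervated arrays left and control arrays right); open circles are values at the floor, grey dashes the floor of each array, lines group means and bands ± SD. All denervated values of Tnnt2 and Myh3 lie above all control values, and 1 denervated value of Casq2, at 8.41, lies among the control values.

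Of the 3 genes, 2 had groups that did not overlap with denervated muscle higher, as did 1.19% of all tested probes (1.28% in either direction). Since the genes were chosen on this contrast, nothing is read from that count. It held for Tnnt2 and Myh3 after the median of each array was subtracted and after quantile normalisation. Leaving out an array cannot make groups overlap that do not. Raising all arrays to the highest floor of 6.69 could not either, since all denervated values of both genes lay above that floor. Neither setting is a check on the separation. Without denervated rat 4 the groups of Casq2 did not overlap either.

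The median difference over all probes was 0.22, and relative to it Tnnt2 was higher by 5.12, Myh3 by 3.47 and Casq2 by 1.55. Quantile normalisation brought that median to -0.0059 and gave differences of 4.94, 3.76 and 1.501 for Tnnt2, Myh3 and Casq2. The low array of control rat 6 added to each difference, and without it they were 4.93, 3.35 and 1.66. The treatment of the floor moved both genes that reached it. Myh3 differed by 2.60 with the common floor and by 3.11 when arrays at the floor were left out, which left 1 control array. For Tnnt2 those values were 4.66 and 4.60, with 4 control arrays in the second.

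Rats 1 to 4 and rats 5 to 8 gave the same direction for each gene and different sizes. For Tnnt2 the difference was 5.55 in the set of rats 1 to 4 and 5.13 in that of rats 5 to 8. Myh3 differed by 2.91 and by 4.46 in those sets, and Casq2 by 1.24 and by 2.29. Over all probes the median was -0.03 in the set of lower numbers and 0.55 in the other, which holds control rat 6. Whether the sizes differ between the sets was not tested.

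**Figure D3:**
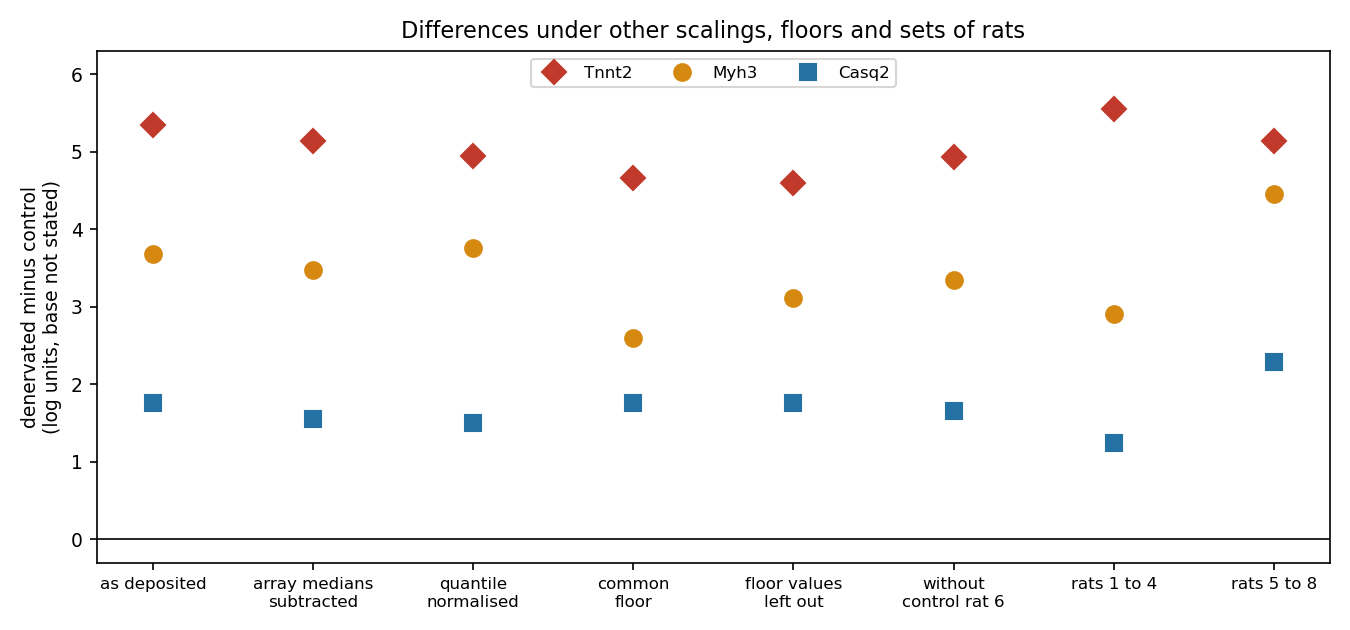
Difference of each gene, denervated minus control (vertical axis, log units), under 8 settings along the horizontal axis; each point is 1 gene in 1 setting. All points lie above 0, and those of Myh3 range from 2.60 with a common floor to 4.46 in rats 5 to 8.

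The denervated rats did not carry the 3 transcripts in a common proportion. Denervated rats 1 and 2 had the highest Tnnt2 values, 13.06 and 12.43, and the lowest Myh3 values, 7.18 and 7.47. In the remaining 6 denervated rats Tnnt2 lay between 10.38 and 11.47 and Myh3 between 9.01 and 10.74. With the array median subtracted, Myh3 stood at -0.99 and -0.73 in denervated rats 1 and 2, and between 0.47 and 2.36 in the others. The spread of Myh3 between denervated rats, an SD of 1.36, was greater than that of 91.1% of the tested probes, whose median SD was 0.77. The SD of Tnnt2 exceeded that of 60.1% of probes and the SD of Casq2 that of 45.3%.

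Across the 8 denervated arrays Tnnt2 and Myh3 were negatively correlated, with a Pearson r of -0.78 (exact two-sided permutation p = 0.0233, adjusted p = 0.0699 over the 3 pairs of genes) and a Spearman rho of -0.62 (exact permutation p = 0.115, adjusted p = 0.345). The relation did not pass the correction. It rested on denervated rats 1 and 2, the 2 arrays farthest from the median of Tnnt2, without which r was 0.13 (exact permutation p = 0.844, n = 6). With array medians subtracted r was -0.56 (exact permutation p = 0.149, adjusted p = 0.448). Of the runs that left out a single denervated rat, only the one without denervated rat 7 passed, at r = -0.93 (exact permutation p = 0.00317, adjusted p = 0.00952). The Spearman rho of that run was -0.82 and did not pass (exact permutation p = 0.0341, adjusted p = 0.102). The adjustment covers the 3 pairs and not the choice among runs. Tnnt2 and Casq2 had r = -0.31 (exact permutation p = 0.452, adjusted p = 0.678) and rho = -0.45 (exact permutation p = 0.267, adjusted p = 0.401), and without the same 2 rats r was -0.47. Myh3 and Casq2 had r = -0.04 (exact permutation p = 0.935, adjusted p = 0.935) and rho = -0.07 (exact permutation p = 0.882, adjusted p = 0.882). Leaving out denervated rats 1 and 2 gave r = -0.39 for that pair.

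The sets of 4 rats were too small for a correlation of their own. With the mean of each set subtracted, r was -0.80 for Tnnt2 with Myh3, 0.65 for Tnnt2 with Casq2 and -0.60 for Myh3 with Casq2, and none passed (exact permutation within sets, adjusted p = 0.219 for each). Casq2 followed the split, at 8.41 to 9.79 in denervated rats 1 to 4 and 10.21 to 10.59 in denervated rats 5 to 8, without overlap. The array medians split in the same way, at 7.97 to 8.20 and 8.48 to 8.60, and with them subtracted Casq2 stood at 0.44 to 1.61 in denervated rats 1 to 4 and 1.61 to 2.05 in denervated rats 5 to 8. Tnnt2 averaged 12.05 ± 0.85 in denervated rats 1 to 4 and 10.86 ± 0.45 in denervated rats 5 to 8, and Myh3 8.83 ± 1.74 and 9.73 ± 0.84 (SD, n = 4 each).

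**Figure D4:**
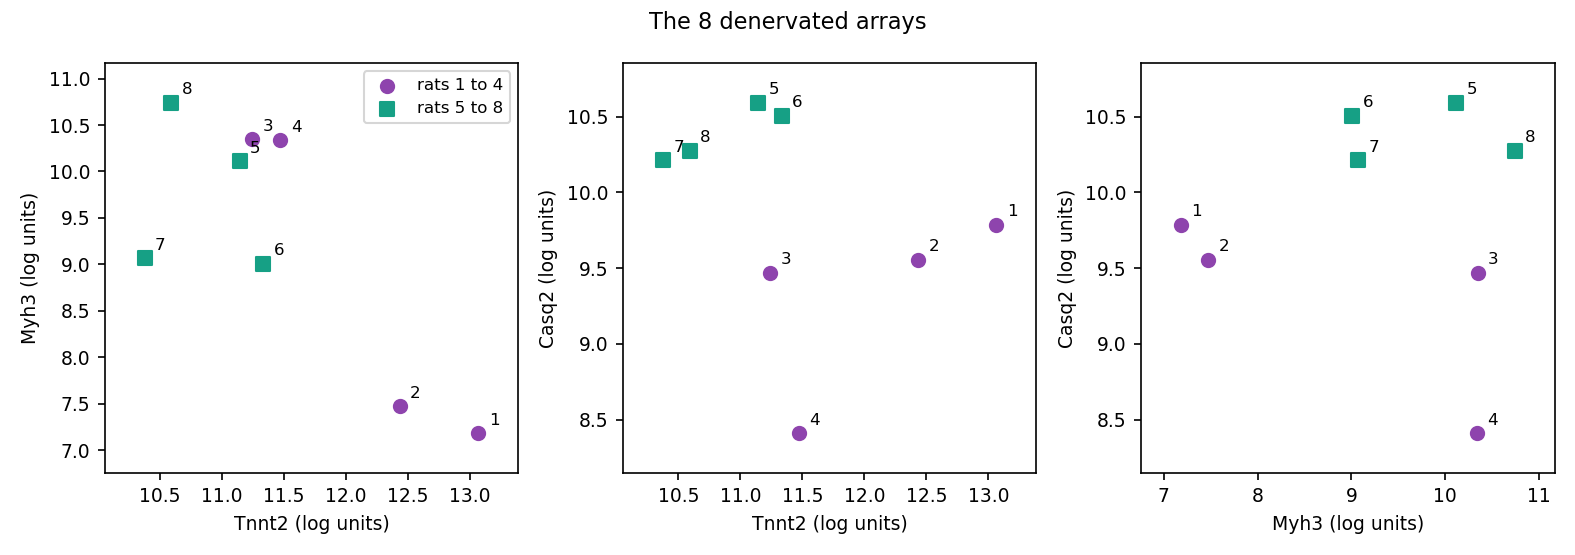
Values of the 3 genes against each other on the 8 denervated arrays (both axes in log units; labels are rat numbers, circles rats 1 to 4, squares rats 5 to 8). Rats 1 and 2 lie apart with high Tnnt2 and low Myh3, and all squares lie above all circles for Casq2.

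Other genes of the contractile machinery were taken from 7 lists, of which 20 genes other than the 3 had a probe. Among them 1 rose and 1 fell, in limma over all probes, so that 2 of 20 were called, beside 6.29% of all tested probes called in either direction (5.44% higher and 0.85% lower). At an unadjusted p under 0.05 there were 3 of 20, beside 17.9% of all tested probes. Differences were positive for 12 of the 20, and their median was 0.41 beside 0.22 over all probes. The gene that rose was Tmod1, tropomodulin, which caps the slow-growing end of actin filaments. The gene that fell was Mylk2, the kinase that phosphorylates the myosin light chain of skeletal muscle.

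Tmod1 lay between 10.72 and 11.82 on denervated arrays and between 8.32 and 10.85 on control arrays, and the groups overlapped. It differed by 1.31 (SE 0.37, limma adjusted p = 0.0237). The call was lost with array medians subtracted (limma adjusted p = 0.0608) and without any one of denervated rats 1 and 4 and control rats 5, 7 and 8 (limma adjusted p = 0.0522, 0.0594, 0.0623, 0.0521 and 0.0575), and was kept after quantile normalisation (limma adjusted p = 0.0350). Mylk2 lay between 8.22 and 9.04 on denervated arrays and between 9.07 and 11.98 on control arrays, without overlap. It fell by 1.87 (SE 0.37, limma adjusted p = 4.18e-04) and kept its call with medians subtracted and after quantile normalisation. Within rat sets, Tmod1 did not pass in rats 1 to 4 (limma adjusted p = 0.270) and Mylk2 did not in rats 5 to 8 (limma adjusted p = 0.0840).

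Among thin-filament genes, Tpm3, the slow and cytoskeletal tropomyosin gene, differed by 1.03 (95% interval 0.24 to 1.82, limma adjusted p = 0.114). It passed with the rat set as a block (limma adjusted p = 0.0237) and in rats 5 to 8 alone, at 1.63 (limma adjusted p = 0.00134). It did not pass with array medians subtracted, at 0.83 (limma adjusted p = 0.211), or in rats 1 to 4 alone, at 0.44 (limma adjusted p = 0.721). After quantile normalisation the Tpm3 difference was 0.11 (limma adjusted p = 0.776). Tpm2, beta-tropomyosin, differed by 0.60 (limma adjusted p = 0.518), a sign that turned after quantile normalisation, at -0.60, and it passed in rats 5 to 8 alone (limma adjusted p = 0.00663). Tpm4, a cytoskeletal tropomyosin gene, differed by 0.59 (limma adjusted p = 0.623). Tpm1, alpha-tropomyosin, was at the floor on 4 denervated and 5 control arrays, at -0.59 (limma adjusted p = 0.684), and at 0.01 with a common floor. Other troponin T genes were not analysed here.

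Beside Myh3, the myosin heavy chain genes with a probe were Myh6, Myh9 and Myh11, and none passed in limma. Myh6, the cardiac alpha chain, lay well above the floor on every array, between 13.11 and 15.15 in denervated muscle and between 11.78 and 14.63 in control muscle. It differed by 1.22 (95% interval -0.05 to 2.50, limma adjusted p = 0.300). Myosin heavy chain genes are close in sequence and the probe sequences were not used here, so the identity of the transcripts behind the Myh6 and Myh3 values is uncertain. Probe sequences were not used for Tnnt2, Casq2, Tpm1 or any other gene either. Myh9, a non-muscle myosin, differed by 0.72 (limma adjusted p = 0.283) and Myh11, of smooth muscle, by 0.45 (limma adjusted p = 0.809), the second at the floor on 2 denervated and 5 control arrays.

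The 4 calcium-handling genes with a probe other than Casq2 had negative differences as deposited, and none passed. The calcium pump inhibitor Pln differed by -0.32 (95% interval -1.19 to 0.54, limma adjusted p = 0.749). The calcium-binding S100a1 differed by -0.41 (95% interval -1.27 to 0.45, limma adjusted p = 0.677). The sodium-calcium exchanger Slc8a1 differed by -0.10 (95% interval -0.98 to 0.77, limma adjusted p = 0.938). Cacna1s, the voltage sensor that triggers calcium release in skeletal fibres, differed by -0.03 (95% interval -0.78 to 0.71, limma adjusted p = 0.976), and passed as lower after quantile normalisation, at -0.79 (limma adjusted p = 0.00230). Casq1, the fast-fibre calsequestrin, was not analysed here.

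Scaffold and metabolic genes of the fibre did not pass as deposited. The membrane linker Dmd differed by 0.82 (limma adjusted p = 0.416), its relative Utrn by 0.57 (limma adjusted p = 0.550) and the intermediate filament gene Nes by 0.38 (limma adjusted p = 0.623). The creatine kinase Ckm differed by 0.70 (limma adjusted p = 0.624) and the glycolytic enzymes Pgam2 and Pkm by 0.15 and -0.59 (limma adjusted p = 0.924 and 0.456). After quantile normalisation Pgam2 and Pkm passed as lower, at -0.93 and -1.56 (limma adjusted p = 0.0172 and 7.41e-06), and Pkm passed as lower in rats 1 to 4 alone, at -1.65 (limma adjusted p = 0.0126). The slow-fibre and oxidative list had no tested probe.

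**Figure D5:**
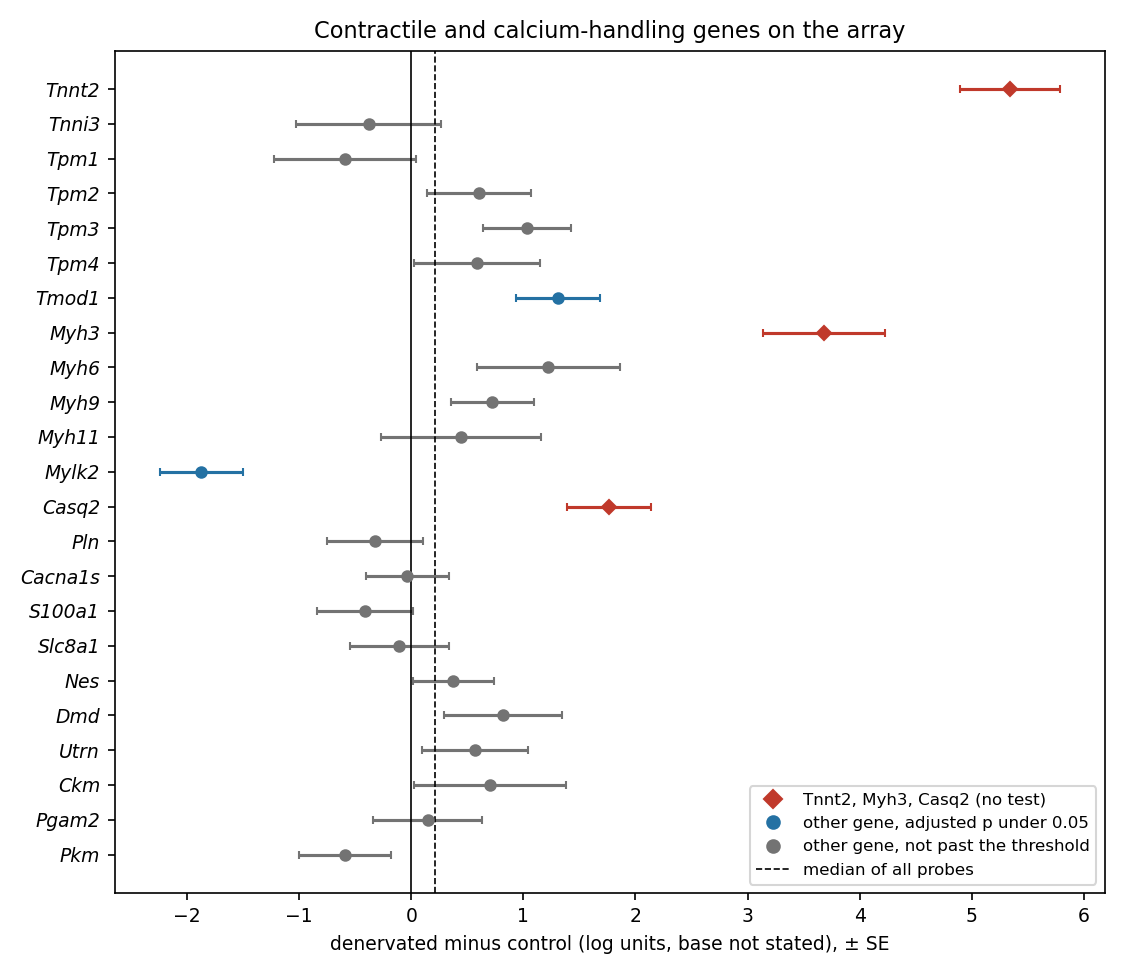
Difference, denervated minus control, with its SE (horizontal axis, log units) for the 3 chosen genes (diamonds, no test) and the 20 other contractile, calcium-handling and fibre genes with a probe (circles). Tnnt2 at 5.34 and Myh3 at 3.68 lie apart from the circles, which run from -1.87 for Mylk2 to 1.31 for Tmod1.

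The cardiac name of Tnnt2 and Casq2 was set against other genes of heart muscle. None of the 5 measured cardiac markers, Myh6, Tnni3, Pln, Slc8a1 and Gata4, passed in limma, at a median difference of -0.10. Myh6 had the highest difference of the 5, at 1.22, and passed in rats 5 to 8 alone, at 1.86 (limma adjusted p = 0.00261). The median over all probes in that set was 0.55. In rats 1 to 4 alone Myh6 differed by 0.58 (limma adjusted p = 0.818), and after quantile normalisation by 0.19 (limma adjusted p = 0.678). The mean level of the 5 markers lay between 7.77 and 9.54 on denervated arrays and between 7.56 and 9.28 on control arrays. Tnni3, cardiac troponin I, the inhibitory partner of troponin T in the heart, differed by -0.38 (95% interval -1.67 to 0.91, limma adjusted p = 0.828). It was at the floor on 3 denervated and 4 control arrays. Gata4, a cardiac transcription factor, differed by 0.08 (95% interval -0.98 to 1.14, limma adjusted p = 0.966).

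Of the genes listed as markers of myogenic precursors and regenerating fibres, 4 of 5 measured were higher in limma. Over all tested probes 5.44% were higher and 0.85% lower. Whether precursors or regenerating fibres were more numerous was not tested. Myog rose by 1.85, Ncam1 by 1.96, Myod1 by 1.33 and Myf6 by 1.29 (limma adjusted p = 3.79e-04, 3.43e-04, 0.0450 and 0.0203). The mean level of the 5 was 9.82 to 10.85 on denervated and 7.85 to 9.91 on control arrays, and none was at the floor anywhere. Fibroblast and matrix markers had 3 of 5 higher, S100a4 by 2.88, Bgn by 2.30 and Dcn by 1.40 (limma adjusted p = 5.06e-07, 3.24e-05 and 0.0318), with a mean level of 10.71 to 12.32 on denervated and 8.41 to 11.08 on control arrays. Of the mature fibre markers 1 of 4, Mylk2, fell. All 4 were above the floor on every array, at a mean level of 10.87 to 11.79 on denervated and 10.20 to 13.50 on control arrays. The macrophage, nerve and adipocyte lists each had 1 gene that rose, Mmp12 of 4, Nefm of 6 and Scd of 2 measured, and of the 2 measured for endothelium and smooth muscle none did. Cxcl1 of the macrophage list differed by -1.92 (limma adjusted p = 0.0550), at the floor on 7 denervated and 4 control arrays. Nefh of the nerve list differed by -0.47 (limma adjusted p = 0.685). The other measured genes of these lists had positive differences. The marker calls in this paragraph are those on the deposited values. Over all probes there were 64 higher and 10 lower calls on those values. With array medians subtracted there were 35 and 15, and after quantile normalisation 35 and 27. The part of any of these cell types in the differences of Tnnt2, Myh3 and Casq2 was not tested.

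The genes whose pattern was most like each of the 3 were taken by Pearson r over the 16 arrays after array medians were subtracted, a measure that mostly follows the gap between the groups. For Tnnt2 they were Bgn, a matrix proteoglycan (r = 0.92), Klk1c2, a kallikrein protease (0.92), the translation factor Eef1a1 (0.92), the cytochrome oxidase subunit gene Cox8a (0.92) and Pcyt2, an enzyme of phospholipid synthesis (0.90). Within the 8 denervated arrays alone those values were 0.69, 0.14, 0.58, 0.53 and 0.38. For Myh3 they were the lysosomal membrane protein gene Cd63 (r = 0.90), Bgn (0.82), the acyl-CoA ligase gene Acsl4 (0.81), the synuclein gene Sncg (0.78) and Eef1a1 (0.78). Within denervated arrays Acsl4 (0.80) and Cd63 (0.68) still varied with Myh3, while Sncg (0.15), Bgn (0.11) and Eef1a1 (-0.24) hardly did. For Casq2 they were Klk1c2 (r = 0.85), its relative Klk1b3 (0.80), Pcyt2 (0.77), the transcription factor gene Runx1 (0.75) and the peptide hormone gene Adm (0.75). Within denervated arrays Klk1c2 kept 0.78, Adm 0.68, Pcyt2 0.60 and Klk1b3 0.42, and Runx1 turned to -0.60. These values share arrays, scaling and floors, and are a description.

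Of the genes most like Casq2, Runx1 had means of 10.26 ± 0.41 in denervated muscle and 6.71 ± 1.04 in control muscle (SD, n = 8 each). Its value was at the floor on 3 of the 8 control arrays, so the control mean partly records floors.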

How the data were processed

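RNA of 16 rat EDL muscles was measured on Clontech Atlas nylon membranes, read on a phosphorimager, quantified with Array Vision and normalised by linear regression, per the labels. What the authors deposited is a log-scale score per probe. The log base, any background subtraction and how the floor arose are not given here. Of 1185 probes, 9 for reference genes were left out, and all of the other 1176 passed a filter asking for values over 0 on 8 or more arrays. The platform table gave 1 gene for 1106 of them, several for 2 and none for 68, and 1099 of the 1106 were found by gene ID in RefSeq (GRCr8), which was used for names and promoter windows. The groups were tested in R 4.3.3 by limma 3.58.1 with a trended eBayes prior, two-sided, at a threshold of 0.05 after Benjamini-Hochberg adjustment over the tested probes, and correlations by exact permutation over 40320 pairings. The number of arrays limits the precision. The procedures were tested on simulated data. The 3 genes, the 7 gene lists, the 8 marker lists and the split of the rats were chosen with earlier results of these data known. Named genes were the 3, their measured paralogues, list members that passed or had 1 of the 3 lowest adjusted p in a list, and the 5 probes most like each gene. Gata4 and the other listed or marker genes outside this rule were named after their values were seen. Alternatives were array centring, quantile normalisation, floors, filters, blocks, robust variance and leaving out each array. Figures were drawn with matplotlib 3.10.9.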

Additional observations from a re-analysis of the deposited data

Results flagged for a closer look

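Control rat 6 lay far from the other 7 control rats for 8 of the 34 genes examined, judged by its gap to the nearest rat over the range of the group. Chance alone gives about 1 in 20 such groups with a rat that far out. The count of 8 cannot be judged against that rate, since all 34 genes were read on the same low array. Some of them were also chosen for their likeness to Tnnt2, Myh3 or Casq2 over arrays that include control rat 6. No denervated rat stood apart in this way for any of the 34 genes. Tnnt2 stood at 3.27 in control rat 6, against 5.66 to 7.30 in the other control rats. Myh3 stood at 3.27, against 5.18 to 6.69, and Tpm1 at 3.27, against 5.18 to 6.89. These 3 values were at the floor of the array. Myh9 stood at 8.24, against 9.53 to 10.54, Bgn at 5.56, against 7.78 to 9.18, and Pcyt2 at 4.35, against 5.74 to 6.99. Cd63 stood at 7.25, against 8.83 to 9.64, and Sncg at 5.78, against 7.86 to 9.37. The whole array of control rat 6 was low, with a median of 6.98, and its Casq2 value of 7.35 was not apart from those of the other control rats.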

How the results depend on the processing

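The differences of Tnnt2, Myh3 and Casq2 kept their sign under all alternatives run and moved by less than 1 SD between rats. Without 1 array they ranged from 4.93 to 5.51, 3.35 to 3.98 and 1.61 to 1.97. Of all probes 74 were called, 64 higher and 10 lower. Array medians subtracted gave 35 higher and 15 lower, and quantile normalisation 35 and 27. Rat number as a replicate block gave 113 calls and the rat set as a block 131; rats 1 to 4 alone gave 30 and rats 5 to 8 alone 139. The labels do not say that a number marks one animal, and the numbers were not taken as pairs because a correlation of deviations over 0.1 was asked of every pair: same-numbered pairs had 0.059 to 0.19, 7 of 8 over 0.1. Rats of the same set with other numbers averaged 0.097 and rats of the other set -0.11, and 2 of 8 control rats correlated best with their own number. Without 1 array there were 43 to 98 calls, with 43 without denervated rat 1, 46 without denervated rat 6, and 49, 45 and 48 without control rats 5, 7 and 8. Of the 20 other contractile genes 2 were called, 1 with medians subtracted, 5 after quantile normalisation, 4 in rats 5 to 8 alone and 1 to 2 without 1 array. Among denervated arrays, r without 1 array ranged from -0.93 to -0.60 for Tnnt2 with Myh3 and from -0.16 to 0.39 for Myh3 with Casq2. It was 0.19 for Myh3 with Casq2 after quantile normalisation and 0.65 for Tnnt2 with Casq2 with set means subtracted. Signs that turned, none of a gene called as deposited, were those of Tpm1 with a common floor (0.015), Tpm2 after quantile normalisation (-0.60) and in rats 1 to 4 (-0.29), Tnni3 (0.44) and Pgam2 (-0.33) in rats 1 to 4, and Cacna1s (0.52), S100a1 (0.15), Slc8a1 (0.24) and Pkm (0.47) in rats 5 to 8. Pgam2 also turned with medians subtracted (-0.062) and after quantile normalisation (-0.93). Without 1 array Tnni3 ranged from -0.63 to 0.063, Cacna1s from -0.25 to 0.13, Slc8a1 from -0.34 to 0.18 and Pgam2 from -0.073 to 0.44. The subtraction of set means, the overlap counts and the separate fits of the rat sets were chosen after seeing the data. The causes were not tested. Floors limit what can be said of low control levels.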
